A study of Mus musculus with 4 samples.

Results

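Translation initiation factors (eIFs) and elongation factors (eEFs) were followed in mouse liver that expressed the SV40 tumour antigens and in liver that did not. The members were all probe sets whose only gene symbol in the platform annotation begins with Eif or Eef, without Eif2s3x and Eif2s3y, which came to 64 probe sets of 47 genes among 12422 probe sets. Each group had 2 arrays. The PEPCK-TAg group was total liver RNA of transgenic mice in which the promoter of PEPCK, a gluconeogenic enzyme, drives the large T and small t antigens of SV40. The wild-type group was total liver RNA of mice without the transgene. Both groups were male B6SJL hybrids of 50 to 66 days kept after weaning on a diet with 65% protein and 10% carbohydrate, which lasted 4 weeks. Whether the 2 arrays of each group stand for different mice is not given in the labels, and p-values then measure only the spread between these arrays, which may be technical. The transgene's own transcript was not analysed here. In whole liver, fewer cells of a type and less RNA per cell cannot be told apart.

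In initiation, eIF2 brings the initiator tRNA to the small ribosomal subunit, eIF3 holds the complex together, and the cap-binding complex eIF4F, made of eIF4E, eIF4A and eIF4G, loads the messenger. The 4E-BP proteins, targets of mTOR, hold eIF4E away from eIF4G, and kinases that phosphorylate eIF2 slow initiation under stress. In elongation, eEF1A delivers aminoacyl-tRNA and eEF2 moves the ribosome along. Translation capacity in liver follows protein intake and growth, and T antigen drives cells into the cycle through the RB proteins.

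Few translation factors passed the test for a difference between the groups. Probe set 160554_at of Eif3e, a subunit of eIF3, was 2.52-fold higher in PEPCK-TAg liver, and 101072_at of Eif4ebp2, a 4E-BP, was 2.34-fold lower. A dimmer Eif3e probe set that was not tested went the other way. Probe sets 160554_at and 101072_at were the 2 of 48 member probe sets tested (41 genes) that passed a Benjamini-Hochberg adjusted p of 0.05 in limma. They make 4.17% of the members, where 12.5% of all 7877 probe sets tested passed, 9.1% higher and 3.4% lower in PEPCK-TAg liver. Of the 48, 23 had a positive and 25 a negative log2 difference (PEPCK-TAg minus wild-type), with a median of -0.01 and a range of -1.33 to 1.33, beside a median of 0.05 and a range of -4.96 to 7.31 over all probe sets tested. The median size of the log2 difference, whatever its sign, was 0.40 for the members and 0.49 for all probe sets tested. At an adjusted p of 0.1, 5 members passed (10.4%, 4 higher and 1 lower), where 20.6% of all did (14.1% higher and 6.51% lower), and at an unadjusted p of 0.05, 13 members (27.1%), where 30.4% of all did. A difference of 2-fold or more was seen in 4 members, or 8.33%, against 21.3% of all, and none of the 4 had overlapping groups (20.5% of all were both). Among probe sets above the filter level on all 4 arrays, 9.52% of 42 members and 14.9% of 6406 differed by 2-fold or more, and 4.76% and 10.1% passed the test. The groups did not overlap in 26 members, 12 higher and 14 lower (54.2%, against 59.8% of all, 33.3% higher and 26.5% lower). The median 95% interval of a member reached 0.68 to each side on the log2 scale, and a p above the threshold does not show equal levels. The plot of the size of the differences shows the members' curve above that of all probe sets tested.

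**Figure D1:**
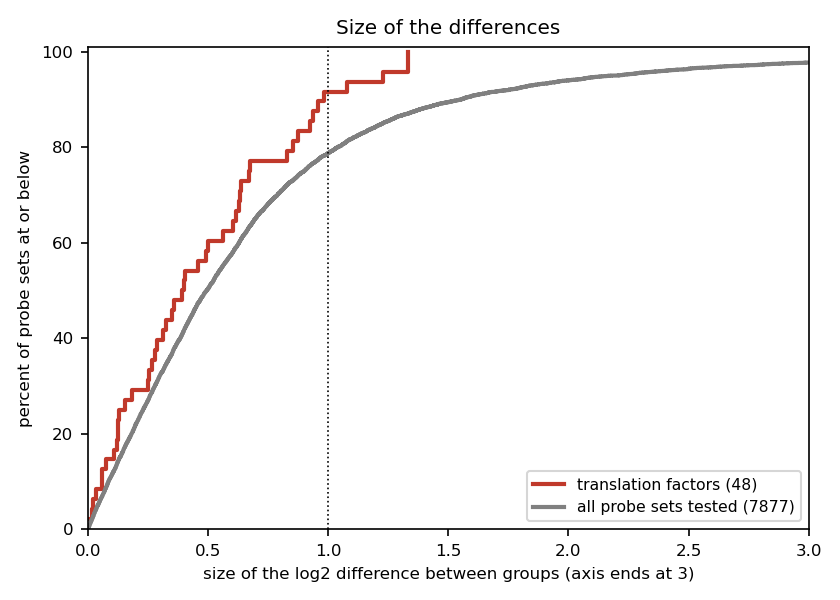
Cumulative percent of probe sets (y axis) by the size of the log2 difference between PEPCK-TAg and wild-type liver (x axis), for the 48 translation factor probe sets in red and all 7877 tested in grey. The dotted line marks 2-fold, which 8.33% of the factors and 21.3% of all probe sets reached or passed.

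A probe set was tested where at least 2 arrays had a signal above 41.3, and 16 member probe sets did not reach that. Their signals lay between 0.40 and 57.6. They left Eef1g, Eef2k, Eif2ak2, Eif4e, Eif4enif1 and Eif4h without a tested probe set, so eIF4E itself, the cap-binding protein, has no result here. The Eif4e probe set 99097_at read 23.8 and 24.3 in PEPCK-TAg liver, against 32.5 and 19.1 in wild-type liver. The kinase of eEF2, Eef2k, read 6.19 and 11.8 in PEPCK-TAg liver, against 32.4 and 22.3 in wild-type liver, so both PEPCK-TAg arrays were the lower, at signals under the filter level. Of the members tested, 42 lay above the filter level on all 4 arrays and 1, Eif5a, passed the filter through wild-type liver alone.

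Genes of the translation apparatus often carry either of a pair of short motifs at their starts, and examples are printed here because both elongation and initiation factors hold them. A tract that opens with C and runs on in pyrimidines at the start of the messenger, the terminal oligopyrimidine tract, is the element through which mTOR acts on translation, and CACGTG is the E-box to which MYC binds. Promoters from the RefSeq table (GRCm38.p6), from 250 bases before to 50 after the annotated start, matched 39 of the 47 genes. A C followed by at least 4 pyrimidines was searched within 5 bases of the annotated start, on either side of it and on the gene's strand. It was found in 10 of the 39 (25.6%), against 23.6% of genes with a probe set tested and 21.2% of all genes in the table. CACGTG, which reads the same on both strands, was found in 10 of the 39 (25.6%), against 12.3% and 8.09%. The windows below run 5′ to 3′ on the gene's strand, with the pyrimidine tract or the E-box in capitals. The printed tracts begin before the annotated start, at -5 in Eef1a1 and Eif3l and at -4 in Eif3f. They are therefore not shown to open the messenger.
Eef1a1, chr9:78481710-78481739, minus strand, tract: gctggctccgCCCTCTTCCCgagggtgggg
Eif3f, chr7:108934400-108934429, plus strand, tract: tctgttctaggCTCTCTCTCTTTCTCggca
Eif3l, chr15:79075208-79075237, plus strand, tract: gcgcggagttCTTCTTCCgctctctcccac
Eef2, chr10:81176576-81176605, plus strand, E-box: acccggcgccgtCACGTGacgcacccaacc
Eif1b, chr9:120492570-120492599, plus strand, E-box: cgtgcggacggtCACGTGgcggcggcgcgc
Eif3k, chr7:28981915-28981944, minus strand, E-box: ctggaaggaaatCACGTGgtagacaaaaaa
Eif4a1, chr11:69672595-69672624, minus strand, E-box: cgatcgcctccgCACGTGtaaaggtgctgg
The Eif4ebp2 window held neither motif, and the 100 bases before its start, chr10:61452670-61452769 on the minus strand, are shown because this gene fell.
Eif4ebp2: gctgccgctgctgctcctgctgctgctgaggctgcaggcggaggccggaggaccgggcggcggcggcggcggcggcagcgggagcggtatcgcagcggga
The 10 tested probe sets of genes with a tract had a median log2 difference of -0.04 (range -0.85 to 0.67), and the 30 without one a median of -0.12 (range -1.33 to 1.08). The 7 tested probe sets of genes with an E-box had a median of -0.15 (range -0.87 to 0.60), against -0.08 for the 33 without one. Eif3e, Eif6, Eif4g2, Eef1d, Eif4ebp1, Eif1a, Eef1akmt1 and Eef1g had no matched promoter and are in none of these medians. Their tested probe sets all had positive differences, from 0.02 (Eef1akmt1) to 1.33 (Eif3e). A match is a description of letters and not a binding site.

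Scanning factors keep the small subunit open until the start codon is found. Of the 5 probe sets of eIF1 and eIF1A genes, none passed, with a median log2 difference of 0.06. The X-linked Eif1ax, which encodes eIF1A, had signals of 519 and 681 in PEPCK-TAg liver, against 240.1 and 332 in wild-type liver (probe set 93358_at). Both PEPCK-TAg arrays lay above both wild-type arrays, with a log2 difference of 1.08 ± 0.28 (SE) and an adjusted p of 0.0559. The other Eif1ax probe set, 160111_at, read 235 and 205 in PEPCK-TAg liver and 242 and 215 in wild-type liver, so the probe sets of this gene differed by over 1 unit on the log2 scale. No direction can be given for Eif1ax. The Eif1a probe sets gave 0.06 and 0.18, and Eif1b gave -0.15.

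Among genes of eIF2 and other carriers of initiator tRNA, Eif2a was the largest difference. It encodes eIF2A, a protein apart from the eIF2 trimer that can also bring initiator tRNA to the ribosome. Its signals were 232 and 213 in PEPCK-TAg liver, against 133 and 98.1 in wild-type liver, without overlap. The log2 difference was 0.96 ± 0.29 (SE), with an adjusted p of 0.0806. Eif2s2, the beta subunit of eIF2, gave 0.40 ± 0.31 (SE) and Eif2d, an initiation factor also known as ligatin, gave -0.29 ± 0.25 (SE). The median of the 3 tested probe sets was 0.40.

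The exchange factor eIF2B reloads eIF2 with GTP and is the step that phosphorylated eIF2 blocks. Its 5 tested probe sets, of 4 genes, lay between -0.40 and 0.50, with a median of -0.01, and none passed. The largest among those above the filter level on all arrays was Eif2b1, the alpha subunit, at 448 and 329 in PEPCK-TAg liver, against 378 and 194 in wild-type liver. Its groups overlapped (log2 difference 0.50 ± 0.38 SE, adjusted p = 0.413). Eif2b4, the delta subunit, read 331 and 315 in PEPCK-TAg liver, against 376 and 401 in wild-type liver (-0.27 ± 0.24 SE). The catalytic subunit Eif2b5 had signals of 383 and 478 in PEPCK-TAg liver, against 409 and 451 in wild-type liver (96822_at).

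The kinases of eIF2 each sense a different stress, and none of the 3 tested passed. Eif2ak1, the haem-regulated kinase HRI, read 137 and 225 in PEPCK-TAg liver, against 204 and 365 in wild-type liver. Eif2ak3, the endoplasmic reticulum kinase PERK, read 124 and 80.2 in PEPCK-TAg liver, against 92.6 and 49.2 in wild-type liver. In both genes the groups overlapped, with log2 differences of -0.63 ± 0.39 and 0.56 ± 0.43 (SE). Eif2ak4, the amino acid sensor GCN2, read 83.5 and 78.5 in PEPCK-TAg liver, against 71.9 and 35.8 in wild-type liver. Its groups did not overlap, yet a single wild-type array set most of the gap (0.67 ± 0.43 SE, adjusted p = 0.334; 0.17 without wild-type 2). The kinase PKR (Eif2ak2) had signals of 33.4 to 39.7 over the arrays, under the filter level.

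The scaffold eIF3 had 10 tested genes, and its members did not move together. Their median log2 difference was -0.02, with 5 positive and 5 negative, and the summed signal of the 13 eIF3 probe sets was 10026 and 9925 in PEPCK-TAg liver, against 9643 and 9319 in wild-type liver. Eif3e, also known as Int6, the integration site of a mouse mammary tumour virus, was the exception. Its probe set 160554_at read 319 and 355 in PEPCK-TAg liver, against 117 and 152 in wild-type liver, means of 337 ± 25.4 and 135 ± 24.7 (SD, n = 2 each). Both PEPCK-TAg arrays lay more than 2-fold above both wild-type arrays. The log2 difference was 1.33 ± 0.27 (SE), with a 95% interval of 0.68 to 1.99 and an adjusted p of 0.0258. Under quantile normalization it was 1.10 with an adjusted p of 0.0555, which ends the call. In the pair of arrays scanned on the same day, PEPCK-TAg 1 and wild-type 1, it was 1.44. A dimmer Eif3e probe set, 101695_at, read 21.6 and 19.4 in PEPCK-TAg liver, against 57.6 and 24.6 in wild-type liver. It was not tested, and both its PEPCK-TAg arrays lay below both wild-type arrays, so no direction can be given for the gene.

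The other eIF3 subunits lay within 1 log2 unit of zero. Eif3a, the largest subunit, read 668 and 559.6 in PEPCK-TAg liver, against 415 and 391 in wild-type liver, without overlap (0.60 ± 0.24 SE, adjusted p = 0.148). Eif3m gave 0.49 ± 0.25 (SE) and Eif3l 0.35 ± 0.23 (SE, 96942_at), also without overlap. A dim Eif3l probe set that was not tested, 162283_r_at, went the other way. It read 9.89 and 7.30 in PEPCK-TAg liver, against 18.1 and 27.8 in wild-type liver. Eif3b and Eif3c, subunits of the core, and Eif3d, which can bind the cap, gave -0.08, -0.28 and -0.12, with standard errors of 0.21 to 0.22. Eif3c and Eif3d were lower on both PEPCK-TAg arrays, without overlap. Eif3c was steady within groups, at 2339 and 2231 in PEPCK-TAg liver, against 2820.0 and 2724 in wild-type liver. Eif3f gave -0.85 ± 0.53 (SE), from signals of 18.2 and 43.4 in PEPCK-TAg liver, against 44.0 and 58.5 in wild-type liver, without overlap but close to the filter level. Eif3j1 and Eif3k gave 0.04 and -0.11.

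**Figure D2:**
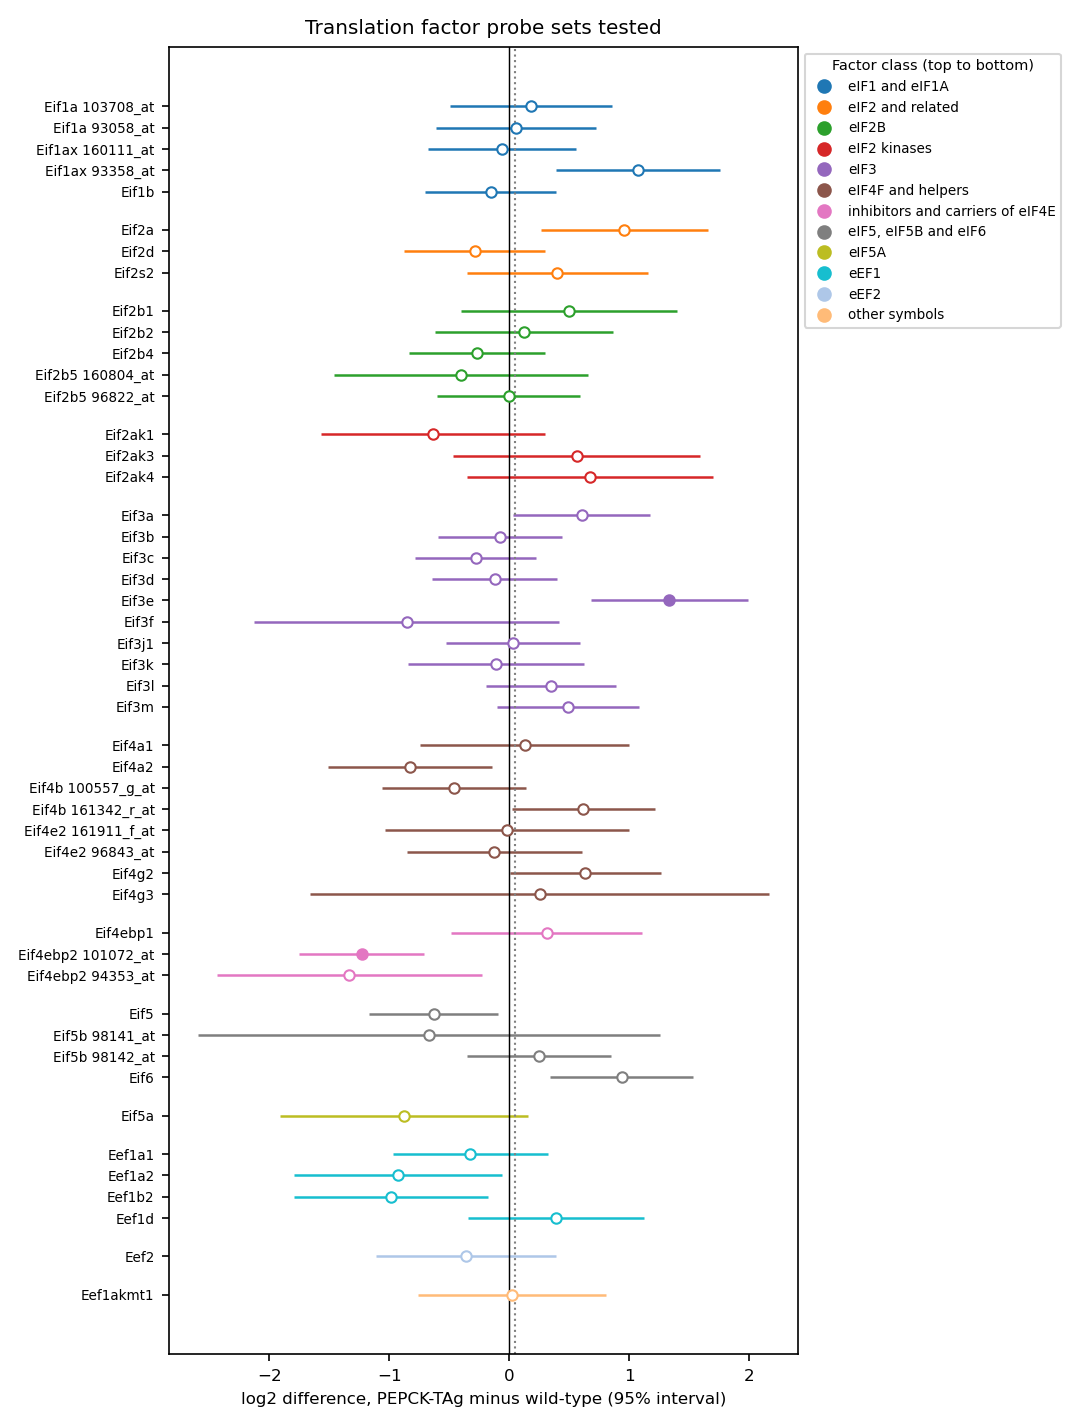
The log2 difference (PEPCK-TAg minus wild-type, x axis) of each of the 48 tested translation factor probe sets, grouped by factor class down the page, with limma's 95% intervals from 2 arrays per group. Filled points passed an adjusted p of 0.05, Eif3e at 1.33 and Eif4ebp2 at -1.23, and the dotted line is the median of all probe sets tested, 0.05.

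In the cap-binding complex and its helpers, none of the 8 tested probe sets passed, and their median was 0.06. The helicase Eif4a2, a form of eIF4A, read 2354 and 1473 in PEPCK-TAg liver, against 3063 and 3563 in wild-type liver. Both PEPCK-TAg arrays were below both wild-type arrays, with a log2 difference of -0.83 ± 0.29 (SE) and an adjusted p of 0.111. Its paralogue Eif4a1 read 183 and 359.7 in PEPCK-TAg liver, against 239 and 229 in wild-type liver, and the arrays of the PEPCK-TAg group stood on either side of the wild-type arrays (0.13 ± 0.36 SE). Whether the paralogues differ from each other was not tested.

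Eif4g2, also called DAP5, a relative of eIF4G that lacks the site for eIF4E, read 320 and 328 in PEPCK-TAg liver, against 237 and 184 in wild-type liver. The groups did not overlap (0.64 ± 0.26 SE, adjusted p = 0.161). Eif4g3 read 43.8 and 119 in PEPCK-TAg liver, against 28.0 and 131 in wild-type liver, a spread within each group larger than the gap between them (0.26 ± 0.80 SE). The helicase cofactor Eif4b gave opposite signs from its probe sets. Probe set 100557_g_at read 461 and 541 in PEPCK-TAg liver, against 613 and 769 in wild-type liver (-0.46 ± 0.25 SE). The other, 161342_r_at, read 375 and 367 in PEPCK-TAg liver, against 264 and 221 in wild-type liver (0.62 ± 0.25 SE), so no direction can be given for the gene. Eif4e2, a cap-binding relative of eIF4E, read 107 and 148 in PEPCK-TAg liver, against 128 and 148 in wild-type liver (96843_at, -0.12 ± 0.30 SE). Its further probe set read 129 and 76.5 in PEPCK-TAg liver, against 135 and 75.0 in wild-type liver (-0.02 ± 0.42 SE).

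Among the inhibitors of eIF4E, Eif4ebp2 fell and Eif4ebp1 did not pass. The probe set 101072_at of Eif4ebp2 read 1461 and 1345 in PEPCK-TAg liver, against 3080.1 and 3505 in wild-type liver, means of 1403 ± 82.3 and 3292 ± 300.3 (SD, n = 2 each). The gap between the groups was several times the spread within either. The log2 difference was -1.23 ± 0.22 (SE), with a 95% interval of -1.75 to -0.71 and an adjusted p of 0.0162, the smallest of any member. It was -1.08 in the pair of arrays scanned on the same day, and -1.02 under quantile normalization, where it passed (adjusted p = 0.0252).

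A second and dimmer tested probe set of Eif4ebp2, 94353_at, read 148 and 78.7 in PEPCK-TAg liver, against 391 and 189 in wild-type liver. The groups did not overlap, with a difference of -1.33 ± 0.46 (SE), but the wider spread within groups left its adjusted p at 0.111. A further one, 96729_at, read 2.20 and 11.5 in PEPCK-TAg liver, against 9.61 and 27.0 in wild-type liver, below the filter level. Eif4ebp1, the 4E-BP most studied as an mTOR target, read 324 and 245 in PEPCK-TAg liver, against 291 and 177 in wild-type liver. Its groups overlapped (0.31 ± 0.33 SE, adjusted p = 0.568), and its 95% interval of -0.48 to 1.11 does not reach the Eif4ebp2 value of -1.23, though the difference between the genes was not tested.

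**Figure D3:**
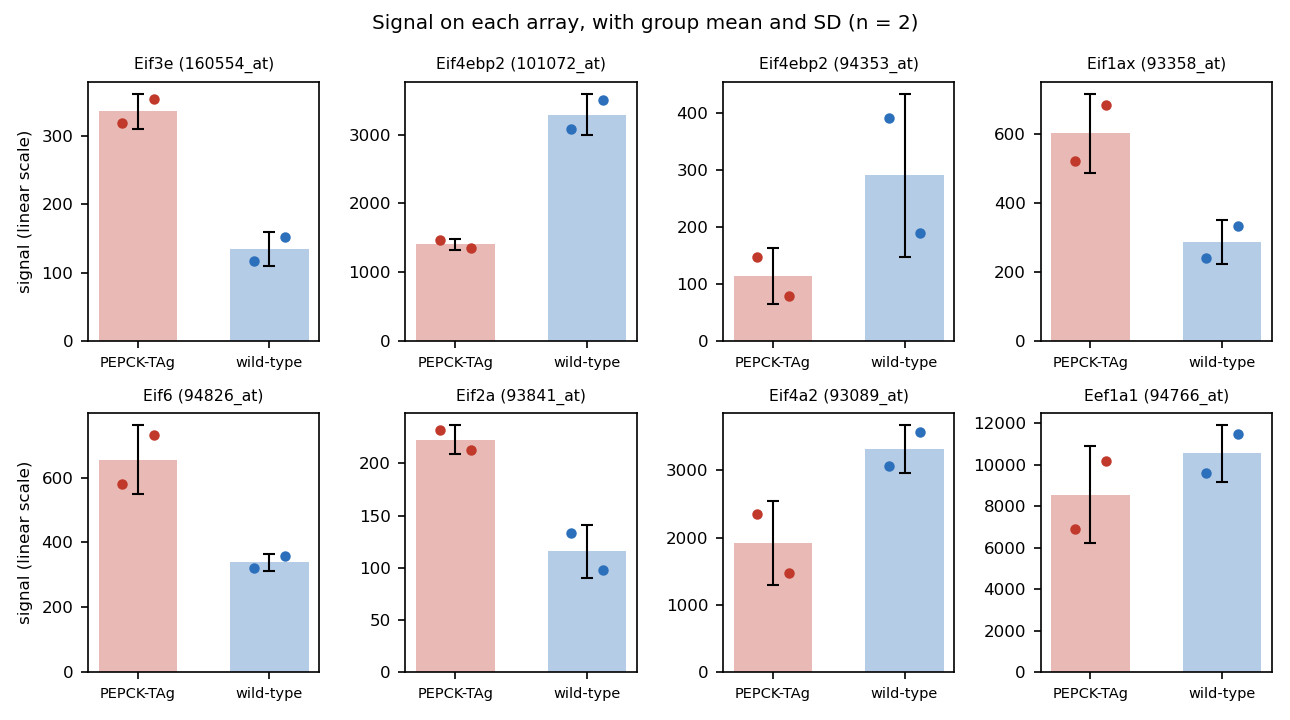
Signals on a linear scale (y axis) of 8 member probe sets, PEPCK-TAg at left and wild-type at right in each panel. Points are arrays, bars are group means and error bars are SD (n = 2); Eif3e averaged 337 in PEPCK-TAg and 135 in wild-type liver, and Eif4ebp2 (101072_at) 1403 and 3292, while the Eef1a1 arrays of the groups overlap.

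Subunit joining factors went both ways. Eif6, which keeps the large ribosomal subunit from joining too early and also serves in its assembly, read 579 and 729.5 in PEPCK-TAg liver, against 321 and 358 in wild-type liver. The groups were well apart, with a log2 difference of 0.94 ± 0.25 (SE) and an adjusted p of 0.0564. Eif5, the activator of GTP hydrolysis by eIF2, read 964 and 963 in PEPCK-TAg liver, against 1368 and 1622 in wild-type liver. Here both PEPCK-TAg arrays were the lower (-0.63 ± 0.22 SE, adjusted p = 0.119). Eif5b, the joining GTPase, gave 0.25 ± 0.25 (SE) from its brighter probe set and -0.67 ± 0.80 (SE) from its dimmer one. Eif5a, the hypusine-bearing factor that helps ribosomes past difficult stretches, read 22.0 and 34.7 in PEPCK-TAg liver, against 53.0 and 48.2 in wild-type liver (-0.87 ± 0.43 SE, adjusted p = 0.228).

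None of the 5 tested probe sets of elongation factors passed the threshold. The difference was negative in 4 of them, but the sign of Eef1a1 and Eef2 turned under other settings, so no direction is given for the class. Eef1a1, the general eEF1A, read 6915 and 10209 in PEPCK-TAg liver, against 9595 and 11509 in wild-type liver. The groups overlapped (-0.32 ± 0.27 SE, adjusted p = 0.460), and the sign turned under quantile normalization, to 0.21. Eef2 read 2060.5 and 2574 in PEPCK-TAg liver, against 2247 and 3878 in wild-type liver (-0.36 ± 0.31 SE, and 0.036 without wild-type 2).

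Eef1a2, the eEF1A form of muscle and neurons, read 62.0 and 99.2 in PEPCK-TAg liver, against 176 and 126 in wild-type liver, without overlap (-0.93 ± 0.36 SE, adjusted p = 0.147). Of the markers of those tissues, Snap25 of neurons read 1.40 to 2.60. The muscle actin Acta1 went the other way, higher on both PEPCK-TAg arrays. It read 19.6 and 25.6 in PEPCK-TAg liver, against 12.9 and 5.80 in wild-type liver, under the filter level. The brighter probe sets of 2 other muscle genes were tested and, like Eef1a2, were lower on both PEPCK-TAg arrays. The dimmer probe sets of these genes were not tested, and there the groups overlapped. The muscle creatine kinase Ckm read 50.9 and 66.5 in PEPCK-TAg liver, against 110.6 and 80.8 in wild-type liver (160175_at). The muscle myosin Myh4 read 11.2 and 34.8 in PEPCK-TAg liver, against 42.9 and 70.0 in wild-type liver (161545_r_at). This Myh4 probe set passed the filter through wild-type liver alone. Neither Ckm nor Myh4 passed the threshold, and their median log2 difference was -1.09. The summed signal of all 6 muscle and neuron probe sets was 103 and 141 in PEPCK-TAg liver, against 185 and 196 in wild-type liver. Their part in the Eef1a2 values was not tested. Of the exchange factor of eEF1A, Eef1b2 read 45.4 and 49.5 in PEPCK-TAg liver, against 105 and 83.8 in wild-type liver (96624_r_at, -0.98 ± 0.34 SE, adjusted p = 0.109). Eef1b2 also had a probe set that was not tested, 102107_at, with overlap. It read 24.2 and 48.3 in PEPCK-TAg liver, against 31.7 and 33.0 in wild-type liver, so no direction can be given for Eef1b2. Its partner Eef1d went the other way, at 330.1 and 478 in PEPCK-TAg liver, against 256 and 359 in wild-type liver, with overlap (0.39 ± 0.31 SE). Eef1akmt1, a lysine methyltransferase of eEF1A, read 79.2 and 68.7 in PEPCK-TAg liver, against 66.5 and 79.4 in wild-type liver (0.02 ± 0.33 SE).

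The plot of 4 probe sets under each setting shows how far the values move. In Eif3e (160554_at) and Eif4ebp2 (101072_at) the sign was the same under every setting run. The log2 difference stayed within 1.10 to 1.52 and within -1.32 to -1.02. Neither call held in limma without a filter, where the adjusted p was 0.106 for Eif3e and 0.0777 for Eif4ebp2. Without PEPCK-TAg 1 the adjusted p was 0.248 for Eif3e and 0.182 for Eif4ebp2, and without PEPCK-TAg 2 it was 0.261 and 0.193, in fits that passed no probe set at all. Eif6 and Eif1ax (93358_at) lay just outside the threshold, and with a filter at the 60th percentile both passed, with adjusted p of 0.0485 and 0.0479. With an array left out, its group has 1 array, which the fit assumes to vary like the other group, so these calls are not on a par with those from 2 against 2 arrays. Without wild-type 2, Eif1ax gave 1.31 and the dimmer tested Eif4ebp2 probe set -1.86, and both passed (limma, adjusted p = 0.0213 and 0.0173). Without wild-type 1, Eif2a gave 1.18 and passed (adjusted p = 0.0417).

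**Figure D4:**
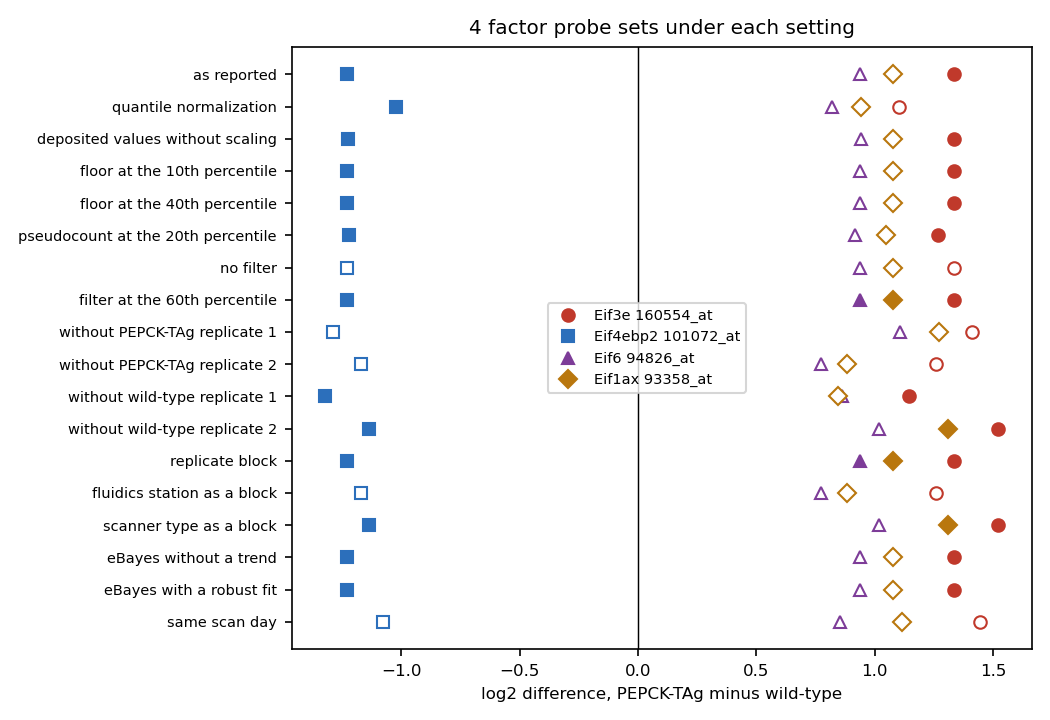
The log2 difference (PEPCK-TAg minus wild-type, x axis) of 4 translation factor probe sets under the reported setting and each alternative (y axis). Filled markers passed an adjusted p of 0.05, the same-day pair has no test, and no marker crosses 0.

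Beside the factors, a list of 58 other genes of translation and its control was read, covering release and recycling factors, poly(A)-binding proteins, mTOR signalling, the eIF2 stress branch and mitochondrial factors. Of these, 38 genes had 50 probe sets tested, of which 1 rose and 1 fell, with a median log2 difference of -0.10. Together these are 4% of the list's probe sets tested, where 12.5% of all probe sets tested passed. Ddit3, the stress transcription factor CHOP downstream of eIF2 phosphorylation, rose to 77.4 and 90.8 in PEPCK-TAg liver, against 19.8 and 20.1 in wild-type liver, 4.20-fold (2.07 ± 0.38 SE, adjusted p = 0.0182). Both wild-type signals lay under the filter level of 41.3, so Ddit3 passed the filter through PEPCK-TAg liver alone, and as a probe set admitted that way it had to differ. Pelo, which rescues stalled ribosomes, fell in probe set 161280_r_at, at 75.3 and 16.2 in PEPCK-TAg liver, against 386 and 213 in wild-type liver (-3.04 ± 0.71 SE, adjusted p = 0.0399). Its further probe set, 98017_at, read 126 and 158 in PEPCK-TAg liver, against 115 and 131 in wild-type liver (0.20 ± 0.29 SE). As neighbouring groups, ribosomal protein genes had 2 of 34 probe sets called (5.88%, median 0.24) and cytosolic aminoacyl-tRNA synthetases 4 of 22 (18.2%, median 0.04).

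Markers of some other cell types moved with the groups in the same RNA. Of all probe sets tested, 9.1% passed as higher and 3.4% as lower in PEPCK-TAg liver. Of 10 tested probe sets of cycling cells, 9 rose, with summed signals of 11480 and 10777 in PEPCK-TAg liver, against 1105 and 971 in wild-type liver. Of 12 myeloid probe sets 8 rose (summed 6818 and 9117 in PEPCK-TAg, against 1209 and 1192 in wild-type), and of 9 erythroid ones 7 rose (10081 and 13472 in PEPCK-TAg, against 3201 and 3256 in wild-type). Of lymphocyte, endothelial and stellate or fibroblast probe sets, 1 of 4, 1 of 6 and 1 of 8 rose, with median log2 differences of -0.61, 0.60 and 0.13. Their summed signals were 378 and 311 (lymphocyte), 787 and 984 (endothelial) and 2419 and 2420.3 (stellate) in PEPCK-TAg liver, against 389 and 384, 620.3 and 532, and 2996 and 2808 in wild-type liver. Single calls among so few probe sets are not a result about these 3 cell types. A probe set of the myeloid enzyme Mpo, 100414_s_at, read 208 and 498 in PEPCK-TAg liver, against 3.20 and 2.20 in wild-type liver, while its other one, 100415_at, overlapped at 25.3 and 37.4 in PEPCK-TAg liver, against 26.2 and 4.70 in wild-type liver. Mki67 of cycling cells read 1374 and 1324 in PEPCK-TAg liver, against 3.803 and 3.501 in wild-type liver (99457_at), and 23.4 and 42.5 in PEPCK-TAg liver, against 56.9 and 43.1 in wild-type liver, from its further probe set. The probe sets 100414_s_at and 99457_at passed the filter through PEPCK-TAg liver alone, so their groups could not overlap. How many other marker probe sets were admitted that way was not counted. The counts of markers that rose are therefore not independent of the filter, while the summed signals cover all probe sets of a list, tested or not. Of 15 hepatocyte probe sets 2 fell, with sums of 79420.0 and 107043 in PEPCK-TAg, against 136601 and 140904 in wild-type, and albumin (Alb) read 9379 and 13117 in PEPCK-TAg liver, against 15364 and 17286 in wild-type liver. The part of these cells in the differences of Eif3e and Eif4ebp2 was not tested. The median signal was 77.0 and 84.7 in PEPCK-TAg liver, against 68.4 and 66.6 in wild-type liver. The number of arrays limits the precision.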

How the data were processed

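Liver RNA was measured on Affymetrix MG_U74Av2 arrays, with 2 PEPCK-TAg and 2 wild-type arrays, grouped by their titles. The authors deposited 1 signal intensity per probe set and array, made with MAS5 per the submitters' processing notes (its version is not stated there). The trimmed means of the deposited intensities were nearly equal, at 250.1 to 250.2. Control probe sets at the 3′ end of actin read 3.14 to 4.33 times those at its 5′ end over the arrays. For Gapdh the ratio was 2.90 to 5.35. The part of this 3′ excess in probe sets of a gene that differ from each other was not tested. Fluidics station, scan day, scanner type and chip lot were taken from the experiment files that were deposited per array.

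Here arrays were scaled to a common 2% trimmed mean without the 66 controls, floored at the 20th percentile (10.6), and taken to log2. Only probe sets with 2 or more arrays over the 40th percentile (41.3) were tested. The fit used limma 3.58.1 under R 4.3.3 (lmFit, eBayes with trend, two-sided, Benjamini-Hochberg over 7877 probe sets, 6.60 degrees of freedom). With 2 arrays a group, 0.333 is the smallest p an exact two-sided permutation test allows. The fit was tested on simulated data. Symbols came from the platform annotation (10833 probe sets with 1, 396 with several, 1193 with none), and 10817 matched RefSeq by gene ID, which changed 0 symbols. 1 further probe set lists a factor among several symbols and is not named.

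Given by array were members past the threshold, the largest of each class among those above the filter level on all arrays, all tested members of eIF4F, its inhibitors, the eIF2 kinases, eEF1 and eEF2, and other members added after their values were seen. Members, classes and lists were chosen with earlier results of these data known. The arrays numbered 1 share fluidics station, scan day and scanner type, and those numbered 2 share none of these. With 2 pairs, whose deviations from group means correlated at 0.253, the numbers were not taken to pair the arrays. Both PEPCK-TAg arrays share a chip lot that no wild-type array has, so lot and genotype cannot be told apart.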

Additional observations from a re-analysis of the deposited data

How the results depend on the processing

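With all 4 arrays 985 probe sets passed. This was 165 with no filter, 1621 at an adjusted p of 0.1 and 0 in a fit blocked on fluidics station (1432 at an unadjusted p of 0.05 in limma). It was 0 to 1449 with an array left out, and 0 without either PEPCK-TAg array (1348 and 1433 at an unadjusted p of 0.05). Leaving out an array or adding the station leaves fewer degrees of freedom, and a group left with 1 array is assumed to vary like the other. PEPCK-TAg 2 was the only array of its station and wild-type 2 the only one of its scanner type, so blocking on these gives each probe set the same difference as leaving that array out and is no separate evidence. With the replicate number as a block, 1873 passed (23.8%), and 7 members (14.6%, 4 higher, 3 lower) in place of 2. Those added were Eif1ax (93358_at only), Eif2a, Eif6, Eif4a2 and a further Eif4ebp2 probe set. Of the other genes of translation 4 rose and 5 fell in that fit.

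Members counted as higher (1) became 0 under quantile normalization, with no filter and in the fit with the station, 3 with a filter at the 60th percentile, 4 at an adjusted p of 0.1, 2 with scanner type as a block (chosen after seeing the data) and 0 to 2 with an array left out. Members counted as lower (1) became 0 with no filter and in the fit with the station, 2 with scanner type and 0 to 2 with an array left out. At an unadjusted p of 0.05 limma gave 14 of 64 members with no filter, where 2476 of all 12422 probe sets passed. It gave 5 of 48 with the station (1432 of all 7877), against 13 of 48 as reported (2394 of all 7877). With the filter at the 60th percentile, 4 of 38 members passed the adjusted threshold, where 906 of all 5381 did. Other genes of translation counted as higher (1) became 0 with no filter, the 60th percentile filter and the station, 2 with scanner type and at 0.1, and 0 to 2 with an array left out. Those counted as lower (1) became 0 under quantile normalization, no filter, the station and eBayes without a trend, 2 with scanner type, 3 at 0.1, and 0 to 6 with an array left out (6 without wild-type 1). Those lists had 11, 6, 9, 4 and 8 at an unadjusted p of 0.05 under quantile normalization, no filter, the 60th percentile, the station and no trend.

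Quantile normalization moved the median of all probe sets to -0.09. Under it the medians of eIF2 and eIF4F were 0.13 and -0.19. As reported, the medians were 0.56 (eIF2 kinases), -1.23 (inhibitors of eIF4E, 3 probe sets of 2 genes), -0.19 (joining factors) and -0.62 (eEF1). With the station as a block the medians were 0.30 (eIF1), -0.36 (eIF4F), -0.88 (inhibitors of eIF4E) and 0.40 (joining factors). With scanner type eIF3 gave 0.0728 and the other genes of translation 0.049. In the same-day pair eIF4F gave -0.16, joining factors 0.23 and the other genes 0.0728. With no filter the inhibitors gave -0.62 and eEF1 -0.16, and with the filter at the 60th percentile the eIF2 kinases gave -0.63, joining factors 0.25 and eEF1 -0.32, over other sets of members. Joining factors gave 0.21 with a floor at the 40th percentile. With the brightest probe set of each gene the inhibitors gave -0.46 and joining factors 0.25. With an array left out the ranges were -0.12 to 0.30 (eIF1), 0.24 to 0.56 (eIF2), -0.16 to 0.15 (eIF2B), 0.11 to 1.02 (kinases), -0.0653 to 0.0728 (eIF3), -0.36 to 0.35 (eIF4F), -1.29 to -0.81 (inhibitors), -0.18 to 0.40 (joining), -0.83 to -0.31 (eEF1) and -0.14 to 0.049 (other genes).

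Among the members given by array, the sign turned in members that did not pass. Under quantile normalization Eif4a1 gave -0.0704, Eef1a1 0.21 and Eef1akmt1 -0.24. With the station as a block Eif4a1 gave -0.36, Eif4e2 (161911_f_at) 0.36 and Eif4g3 -0.47. With scanner type Eif4ebp1 gave -0.0474 and Eef2 0.0358, and Eif4g3 gave -0.0245 with a floor at the 40th percentile. With an array left out the ranges were -0.36 to 0.62 (Eif4a1), -0.44 to 0.41 and -0.36 to 0.11 (Eif4e2), -0.86 to 1.37 (Eif4g3), -0.0474 to 0.67 (Eif4ebp1), -0.75 to 0.0358 (Eef2) and -0.11 to 0.15 (Eef1akmt1).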
